A study of Homo sapiens with 24 samples.

Results

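HH is an established human line of cutaneous T-cell lymphoma, a cancer of mature CD4+ T cells that home to skin. The libraries described here are the HH libraries of the azacitidine set, 4 of the 24 RNA-seq libraries of the series, chosen by the prefix of their titles: 1 from untreated cells and 1 each from cells given azacitidine at 50, 125 and 250 nM. Exposure lasted 96 h with drug added every 24 h, and the cells were in logarithmic growth. Untreated HH cells were also sequenced in a separate set of libraries made for decitabine, and that library (the second untreated library below) served as a check of direction. The 8 azacitidine-set libraries of the leukemia lines PF382 (acute lymphoblastic, of T cells) and TLOm1 (adult T-cell type) at 0, 125, 250 and 500 nM, and the 3 HH libraries given decitabine at 5, 12.5 and 25 nM, are used for comparison only. There were no replicates: every dose is 1 library of 1 line, and the labels do not say whether the cultures were run together.

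Azacitidine is a cytidine analog. It is phosphorylated in the cell and enters RNA and, after reduction by ribonucleotide reductase, DNA, where it traps DNA methyltransferases, so that methylation of CpG sites is lost as cells divide. Genes whose promoters are kept methylated in somatic cells, above all the germline and cancer-testis genes of the X chromosome, are well known to become transcribed after such treatment. Decitabine is the deoxy form and enters DNA only.

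The values were whole read counts for 25559 genes. The 4 libraries held 24315400 counts (untreated), 16175077 (50 nM), 32496676 (125 nM) and 24802636 (250 nM), and the second untreated library 20120797. Levels are given as CPM, the counts scaled to a common library size with TMM (a correction for differences in RNA composition), and compare the same gene between libraries, not genes with each other. A count of 0 allows up to 3 counts, which is 0.128, 0.191, 0.0949 and 0.124 CPM in the 4 libraries in the order above; sampling of reads is the only error in these limits. The untreated libraries of the 2 sets differed from each other by more than sampling noise (chi-square per degree of freedom over genes 35.8, against 9.42 between the untreated and the 50 nM library and 56.7 between the untreated and the 250 nM library), and the set and any other difference between these cultures cannot be told apart.

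Markers of T cells were checked first. CD4, the coreceptor of helper T cells, was at 584 CPM without drug, 586, 617 and 640.2 CPM at 50, 125 and 250 nM, and 547 CPM in the second untreated library. CD2, CD3D, CD3E, CD5, ZAP70, BCL11B and GATA3 were present in every library. LCK, the kinase that starts T-cell receptor signaling, had no count in the 4 libraries (0.261 CPM in the second untreated library), and CD7 did not exceed 1.42 CPM, so that these defining T-cell transcripts were at or near 0 throughout. Of the marker lists of other cell types, the summed level of the 15 fibroblast and endothelial genes was 3.24 CPM untreated and 11.6 CPM at 250 nM, and of its 8 tested members COL6A1, a collagen chain, rose with dose (slope 1.47 ± 0.19, adjusted p = 2.89e-06 by edgeR). COL6A1 had 0 counts untreated and 1 in the second untreated library, and passed the filter for testing through treated libraries alone. Its direction against untreated cells was thus fixed, and 3 of the 8 had at most 3 counts in both untreated libraries. No tested member of the epithelial, B-cell, myeloid or erythroid and megakaryocyte lists changed with dose, and their summed levels stayed between 0.767 and 57.8 CPM in the untreated library and between 1.36 and 43.7 CPM at 250 nM.

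The 50 nM library stands apart in another way. A set of 32 genes that TLOm1 expresses and that HH and PF382 do not (at least 20 CPM in all TLOm1 libraries of the decitabine set, at most 3 counts in every HH library of that set and under 5 CPM in PF382) summed to 32.3 CPM at 50 nM, against 4.4 CPM untreated, 3.88 CPM at 125 nM, 4.39 CPM at 250 nM and 0.646 CPM in the second untreated library. The same genes summed to 2060.0 CPM in untreated TLOm1 cells, so the 50 nM library held 1.57% of the TLOm1 level and the others 0.188% to 0.213% (0.0313% in the second untreated library). The second untreated library belongs to the decitabine set, so the rule that chose the genes keeps its value low. All 32 genes had counts at 50 nM. The 110 genes found in the same way for PF382 reached at most 0.0737% of the PF382 level. IL2RA, the high-affinity interleukin-2 receptor chain, shows the pattern: 0.767 CPM without drug, 4.01, 0.664 and 0.659 CPM at 50, 125 and 250 nM, and 0.0522 CPM in the second untreated library. Applying the 1.57% to every gene, 548 of the 14394 genes tested could take over 10% of their 50 nM level from TLOm1 reads. The counts of called genes are given with and without these genes, for a gene list where leaving them out changes its counts, and their share is given beside the genes it touches. Where the signal came from was not tested.

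The promoters of 5 genes that the results below turn on are printed from the RefSeq tables (GRCh38.p14), 250 bases ending just before the transcription start, 5′ to 3′ on the strand of the gene, with each CpG, the dinucleotide that is methylated, in capitals. CCNA1 (a germline cyclin), MAGEB2 (a melanoma antigen gene of the X chromosome), SMC1B (the meiotic cohesin subunit) and CARD9 (an adaptor of innate immune signaling) rose with dose, and H19 is an imprinted noncoding RNA that was at 0 counts without drug. The windows of CCNA1 (31 CpG, observed to expected ratio 0.94), MAGEB2 (15 CpG, observed to expected ratio 0.7) and SMC1B (29 CpG, observed to expected ratio 1.27) are rich in CpG, and those of CARD9 (5 CpG, observed to expected ratio 0.18) and H19 (4 CpG, observed to expected ratio 0.19) are poor in it, so rising genes had promoters of either kind. The genes were matched by symbol, since the counts were made on GRCh37.p2. Methylation itself was not measured in these libraries.
CCNA1, chr13:36431705-36431954, plus strand: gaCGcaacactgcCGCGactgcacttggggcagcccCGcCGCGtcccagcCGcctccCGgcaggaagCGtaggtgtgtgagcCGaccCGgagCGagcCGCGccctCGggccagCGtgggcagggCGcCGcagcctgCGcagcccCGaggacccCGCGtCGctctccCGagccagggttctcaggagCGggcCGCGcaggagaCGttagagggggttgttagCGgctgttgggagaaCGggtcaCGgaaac
MAGEB2, chrX:30215313-30215562, plus strand: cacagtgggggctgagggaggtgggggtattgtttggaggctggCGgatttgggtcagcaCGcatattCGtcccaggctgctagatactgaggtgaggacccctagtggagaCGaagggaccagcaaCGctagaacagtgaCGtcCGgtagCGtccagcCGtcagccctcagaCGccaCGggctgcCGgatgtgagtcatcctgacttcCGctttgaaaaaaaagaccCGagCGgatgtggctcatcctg
SMC1B, chr22:45413600-45413849, minus strand: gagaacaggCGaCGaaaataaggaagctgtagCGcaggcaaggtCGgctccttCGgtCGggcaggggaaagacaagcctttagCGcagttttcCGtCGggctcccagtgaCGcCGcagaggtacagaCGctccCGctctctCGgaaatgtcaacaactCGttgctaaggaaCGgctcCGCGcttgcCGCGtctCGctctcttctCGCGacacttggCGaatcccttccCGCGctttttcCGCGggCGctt
CARD9, chr9:136373670-136373919, minus strand: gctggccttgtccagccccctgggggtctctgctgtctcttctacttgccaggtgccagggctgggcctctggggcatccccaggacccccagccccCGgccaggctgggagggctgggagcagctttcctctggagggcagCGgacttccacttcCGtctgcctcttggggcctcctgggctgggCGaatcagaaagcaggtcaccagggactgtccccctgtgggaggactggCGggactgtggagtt
H19, chr11:2001267-2001516, minus strand: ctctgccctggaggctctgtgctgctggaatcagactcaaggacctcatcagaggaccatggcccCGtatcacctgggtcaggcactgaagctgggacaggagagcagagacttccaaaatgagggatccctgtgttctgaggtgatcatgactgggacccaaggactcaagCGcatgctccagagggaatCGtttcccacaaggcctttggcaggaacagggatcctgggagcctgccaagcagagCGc

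More genes moved at each higher dose, and upward more often than downward. Of 12524 genes with a mean of at least 1 CPM, 81 (0.647%) were at least 2-fold above the untreated library at 50 nM and 7 (0.0559%) at least 2-fold below it, on the log2(CPM + 1) scale. At 125 nM the numbers were 246 higher (1.96%) and 50 lower (0.399%), and at 250 nM 425 higher (3.39%) and 168 lower (1.34%). The second untreated library, with no drug, had 92 higher (0.735%) and 89 lower (0.711%). The 50 nM count is therefore no larger than the difference between the untreated libraries, and 29 of its 81 higher genes could take over 10% of their level from TLOm1 reads. The 125 and 250 nM counts of higher genes exceeded that difference, and the count of lower genes did so at 250 nM only.

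**Figure D1:**
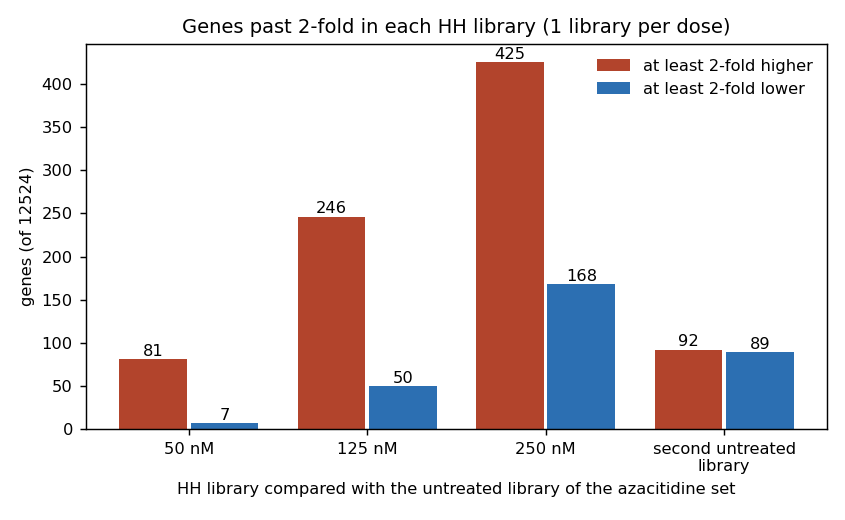
Number of genes (y axis) at least 2-fold above or below the untreated library of the azacitidine set in the 50, 125 and 250 nM libraries and in the second untreated library (x axis), on the log2(CPM + 1) scale over 12524 genes; 1 library per bar pair, so there are no error bars. The higher genes number 81, 246 and 425 at the 3 doses, against 92 in the second untreated library.

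The comparison of the 3 treated libraries together with the untreated one found no gene past the threshold. With edgeR's quasi-likelihood test, whose spread includes the differences between doses, 0 of 14394 genes were higher (0.0%) and 0 lower (0.0%) at an adjusted p of 0.05. At an unadjusted p under 0.05 there were 1151 higher and 762 lower. DESeq2 called 205 higher and 75 lower and limma voom 14 and 31, while edgeR with the dose slope as a term called 1382 and 1031, and edgeR without the 50 nM library 232 and 94. A single-gene exact permutation test of 1 library against 3 cannot give a p below 0.25. Counting values only, 2988 genes (20.8%) lay above both untreated libraries at all 3 doses and 2823 (19.6%) below both.

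The genes closest to the threshold in that comparison had similar levels at all 3 doses, which the test favors because its spread is taken between doses. GALNT5, an enzyme that starts O-linked glycosylation, was at 1.45 CPM without drug, 25.4, 31.6 and 23.4 CPM at 50, 125 and 250 nM, and 1.15 CPM in the second untreated library (log2 fold change 4.21 ± 0.58, adjusted p = 0.0521 by edgeR). ID3, an inhibitor of E-protein transcription factors that shape T-cell fate, was at 1.32 CPM without drug, 5.41, 6.61 and 7.78 CPM at 50, 125 and 250 nM, and 0.731 CPM in the second untreated library (log2 fold change 2.33 ± 0.38, adjusted p = 0.0521, edgeR). In both genes every treated library lay above both untreated ones. Genes of the smallest p were picked only where all 3 treated libraries lay beyond both untreated ones. For them this position is therefore fixed by the choice and is no check.

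Other genes lay lower at every dose, none of them past the threshold. TNFAIP3, which encodes A20, a brake on NF-kappaB signaling, was at 351 CPM without drug, 215, 197 and 193 CPM at 50, 125 and 250 nM, and 495 CPM in the second untreated library (log2 fold change -0.80 ± 0.13, adjusted p = 0.0521, edgeR). TRAF1, an adaptor of TNF receptors and an NF-kappaB target, was at 1084 CPM without drug, 588, 486 and 429.6 CPM at 50, 125 and 250 nM, and 1396 CPM in the second untreated library (log2 fold change -1.11 ± 0.25, adjusted p = 0.112, edgeR). CCL22, a chemokine that attracts CCR4-bearing T cells, was at 78.5 CPM without drug, 44.2, 46.4 and 51.4 CPM at 50, 125 and 250 nM, and 100.03 CPM in the second untreated library. All 3 treated libraries were below both untreated libraries for these 3 genes, as they were for 9 of the 23 tested NF-kappaB and TNF receptor genes against 19.6% of all genes. For a gene chosen by the smallest p, the rule of choice requires that position.

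Other genes near the threshold that lay higher at every dose were PYCARD, the inflammasome adaptor (ASC), at 0.597 CPM untreated, 2.35, 3.23 and 4.08 CPM with rising dose and 0.261 CPM in the second untreated library, RCOR2, a subunit of a histone demethylase complex, at 0.725 CPM untreated, 4.07, 7.69 and 6.46 CPM with rising dose and 0.679 CPM in the second untreated library, and TYRO3, a receptor tyrosine kinase, at 0.256 CPM untreated, 1.97, 2.88 and 2.51 CPM with rising dose and 0.0522 CPM in the second untreated library. MAPKAPK3, a kinase downstream of p38, was at 52.2 CPM untreated, 80.7, 88.9 and 90.6 CPM with rising dose and 41.8 CPM in the second untreated library, and SPN (CD43), a T-cell sialoprotein, at 3.88 CPM untreated, 11, 15.3 and 16.2 CPM with rising dose and 6.79 CPM in the second untreated library. Of these, TLOm1 reads could give 22.8% of the 50 nM level of PYCARD and 34.3% of that of SPN, with 11.1% for ID3 and 12.6% for USP40, the remaining gene at the smallest adjusted p of 0.0521 by edgeR, which TNFAIP3, ID3 and GALNT5 share. NPC1, the lysosomal cholesterol exporter, was at 119 CPM untreated, 86.3, 79.2 and 71.8 CPM with rising dose and 117 CPM in the second untreated library. Its treated libraries overlapped the untreated ones at no dose, a position that the choice by the smallest p requires.

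Dose gave the clearer result. The slope on log2 dose was tested among treated libraries only, in a fit of the 18 treated libraries of all lines and both drugs with a mean and slope for each line and drug, and it does not use the untreated libraries. At an adjusted p of 0.05 (edgeR), 1294 of 14394 genes rose (8.99%) and 1199 fell (8.33%). Of the rising genes, 1224 were at 250 nM above both untreated libraries and 608 were so at all 3 doses, against 38.1% and 20.8% of all genes tested. Of the falling ones, 1066 were below both at 250 nM and 423 at all 3 doses, against 38.8% and 19.6% of all genes tested. The median slope was 0.31 per doubling of the dose among rising and -0.21 among falling genes, and 219 of the rising and 69 of the falling genes moved by at least 1 per doubling, which is 2-fold. The 250 nM value, which also enters the slope, lay beyond the untreated library of the set for 1283 of the rising and 1164 of the falling genes. The 50 nM value lay above that library for 782 of the 1294 rising genes and below it for 587 of the 1199 falling ones. Of all 14394 genes tested 6950 lay below it at 50 nM, a share near that of the falling genes, so nothing is read from their count.

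These counts lean on the end doses. Without the 50 nM library 139 genes rose and 105 fell, and without the 250 nM library 186 rose and 118 fell. With the 548 genes open to TLOm1 reads left out, 1190 rose and 1084 fell. All slopes below are log2 per doubling of the dose with the standard error, and all their adjusted p values are from this edgeR fit over all 14394 genes.

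CCNA1, the cyclin of male meiosis, had the smallest p. It was at 0.213 CPM without drug, 2.16, 19.5 and 67.7 CPM at 50, 125 and 250 nM, and 0.157 CPM in the second untreated library (slope 2.05 ± 0.10, adjusted p = 1.4e-13). RAB37, a GTPase of secretory vesicles, was at 12.6 CPM without drug, 27.6, 65.5 and 107 CPM at 50, 125 and 250 nM, and 26.4 CPM in the second untreated library (slope 0.84 ± 0.06, adjusted p = 7.72e-10). CARD9 was at 3.37 CPM without drug, 10.9, 32.1 and 58.7 CPM at 50, 125 and 250 nM, and 2.14 CPM in the second untreated library (slope 1.03 ± 0.07, adjusted p = 8.2e-10).

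E2F2, a transcription factor of the G1 to S transition, was at 61.7 CPM without drug, 71.1, 136 and 194 CPM at 50, 125 and 250 nM, and 56.6 CPM in the second untreated library (slope 0.62 ± 0.05, adjusted p = 8.2e-10). NPHP4, a protein of the base of the cilium, was at 65.3 CPM without drug, 91.6, 176 and 242 CPM at 50, 125 and 250 nM, and 49.7 CPM in the second untreated library (slope 0.61 ± 0.05, adjusted p = 1.17e-09). All 5 genes were above both untreated libraries at every dose, with no overlap, and each stepped up from 50 to 125 to 250 nM. CARD9 is the gene of the 5 for which TLOm1 reads could give over 10% of the 50 nM level (10.4%).

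Germline genes were for the most part at or near 0 without drug, and several were higher at 250 nM. Of 92 genes on the list of germline and cancer-testis genes, 91 were in the files, 27 of them at 0 in all 5 HH libraries, and 40 were tested. Of the 40, 28 rose and 0 fell, with a median slope of 1.80 against -0.0047 for all genes tested. This count needs care, since 24 of the 40 had at most 3 counts in both untreated libraries and passed the filter only because they are present in treated cells, which fixes their direction. Of these 24, 20 rose, with a median slope of 2.06. Of the 16 with over 3 counts in an untreated library, 8 rose, with a median slope of 0.77. The summed level of the whole list, untested members included, was 60.7 CPM untreated, 72.6, 114 and 248 CPM at 50, 125 and 250 nM and 72.3 CPM in the second untreated library. Without the 50 nM library 20 of the 40 rose and without the 250 nM library 2, and of the 33 members not open to TLOm1 reads at 50 nM 27 rose.

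The cancer-testis antigens of the X chromosome came up from 0 or near it. MAGEA4 was at 0 CPM without drug, 0.191, 0.601 and 6.59 CPM at 50, 125 and 250 nM, and 0 CPM in the second untreated library (slope 2.93 ± 0.37, adjusted p = 3.81e-05). MAGEA1 was at 0 CPM without drug, 0.254, 1.33 and 4.94 CPM at 50, 125 and 250 nM, and 0 CPM in the second untreated library (slope 1.86 ± 0.24, adjusted p = 6.94e-06). At 50 nM these values rest on 4 counts of MAGEA1 and 3 of MAGEA4, and at 250 nM on 120 and 160. Both genes are among the 24 that passed the filter through treated libraries alone, so their p values are description only. Whether more cells carried the RNA or each cell more of it cannot be told apart in bulk libraries.

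MAGEB2, whose promoter is printed above, was near the floor in both untreated libraries and was at 0.17 CPM without drug, 1.4, 3.95 and 13.4 CPM at 50, 125 and 250 nM, and 0.0522 CPM in the second untreated library (slope 1.53 ± 0.17, adjusted p = 3.52e-05). TLOm1 reads could give 82.9% of its 50 nM level, while at 125 and 250 nM the TLOm1 signal was at the untreated level. MAGEB2 was at 74.0 CPM in untreated TLOm1, and the untreated HH library held 0.213% of the TLOm1 level. Whether its few untreated reads came from HH cells was not tested. SSX1, a gene of the synovial sarcoma family, was at 0.128 CPM without drug, 0.445, 1.77 and 8.07 CPM at 50, 125 and 250 nM, and 0 CPM in the second untreated library (slope 1.97 ± 0.30, adjusted p = 0.000982). SSX1 also passed the filter through treated libraries alone, so its p value is description only. The MAGE, SSX and PAGE genes are families of near-identical copies, and how the counting split reads between them is not given, so values of single members are uncertain.

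Genes of meiosis and of the piRNA pathway, which silences transposons in germ cells, moved as well. SMC1B, measurable before treatment, was at 4.73 CPM without drug, 5.85, 12.4 and 19.9 CPM at 50, 125 and 250 nM, and 6.53 CPM in the second untreated library (slope 0.76 ± 0.10, adjusted p = 3.39e-06). STAG3, its partner in the meiotic cohesin ring, was at 8.35 CPM without drug, 8.9, 11.7 and 24.1 CPM at 50, 125 and 250 nM, and 11 CPM in the second untreated library (slope 0.66 ± 0.08, adjusted p = 3.39e-06). For both, the 50 nM level lay between the untreated libraries, and the 125 and 250 nM levels lay above both.

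HORMAD1, a protein of the meiotic chromosome axis, was at 0 CPM without drug, 0, 0.158 and 2.22 CPM at 50, 125 and 250 nM, and 0 CPM in the second untreated library (slope 3.76 ± 0.51, adjusted p = 7.5e-06). TEX11, a meiotic crossover factor, was at 0.128 CPM without drug, 0.191, 0.854 and 6.05 CPM at 50, 125 and 250 nM, and 0.157 CPM in the second untreated library (slope 2.52 ± 0.36, adjusted p = 0.000188). PIWIL2, a piRNA-binding Argonaute protein, was at 0.341 CPM without drug, 0.191, 0.823 and 4.45 CPM at 50, 125 and 250 nM, and 0.47 CPM in the second untreated library (slope 2.19 ± 0.33, adjusted p = 9.73e-05). In these 3 genes the 250 nM library alone is over 1 CPM. HORMAD1 and TEX11 passed the filter through treated libraries alone, so their p values are description only.

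CTCFL, the germline paralog of the insulator protein CTCF, was at 0 CPM untreated, 0.254, 0.728 and 3.17 CPM with rising dose and 0 CPM in the second untreated library (slope 1.79 ± 0.31, adjusted p = 0.00022). CTCFL passed the filter through treated libraries alone, so its p value is description only. The 12 tested members that were not called were PAGE2, CTAG2, PRAME, DDX4, DDX43, PIWIL4, TDRD9, TEX14, TEX15, DMC1, REC8 and C16orf73 (MEIOB). PRAME, an antigen of many tumors, was at 0.0426 CPM untreated, 0.445, 0.601 and 0.947 CPM with rising dose and 0 CPM in the second untreated library (edgeR slope 0.50 ± 0.28, adjusted p = 0.237), and REC8, another meiotic cohesin, at 6.69 CPM untreated, 5.6, 5.82 and 5.27 CPM with rising dose and 7.0 CPM in the second untreated library (edgeR slope -0.04 ± 0.09, adjusted p = 0.822). The slopes of the 40 tested members were above 0 for 40 in PF382, 36 in TLOm1 and 37 in HH with decitabine, against 53.3%, 50.3% and 49.3% of all genes tested, and 24 of the 40 passed the filter through treated HH cells alone.

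**Figure D2:**
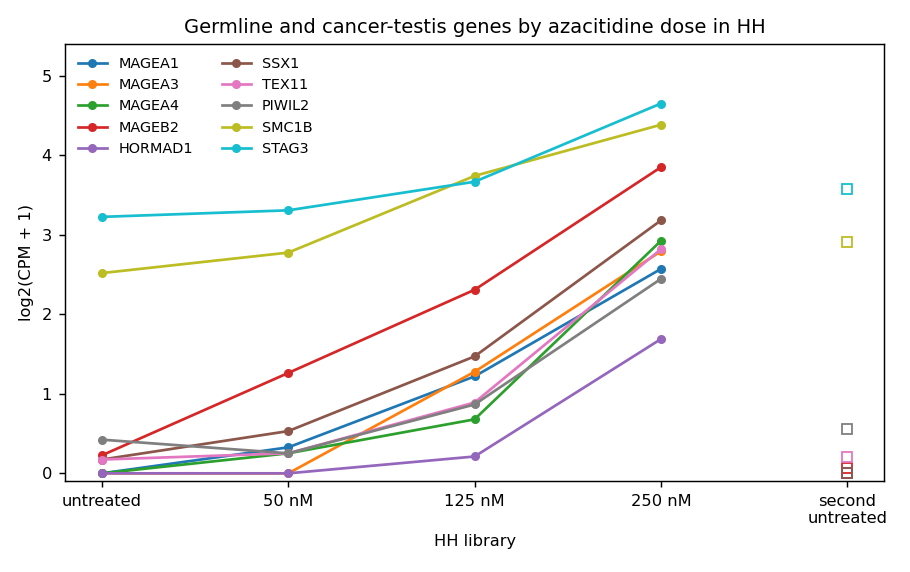
Levels on the log2(CPM + 1) scale (y axis) of 10 rising germline and cancer-testis genes in the untreated, 50, 125 and 250 nM HH libraries (x axis, filled points joined by lines) and in the second untreated library (open squares); each point is 1 library, so there are no error bars. All 10 genes are highest at 250 nM, where STAG3 is at 24.1 CPM and HORMAD1 at 2.22 CPM.

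A wider set of genes went from near silence to a measurable level. With at most 3 counts in each untreated library and at least 1 CPM at 250 nM as the rule, 108 genes were found, 42 of them at 0 counts in both. These are values that chose the genes, so they are a description. The summed level of the 108 was 4.22 CPM untreated, 30.3 CPM at 50 nM, 135 CPM at 125 nM and 428 CPM at 250 nM (3.29 CPM in the second untreated library). Only 4 genes had reached 1 CPM at 50 nM and 36 at 125 nM, and 105 were highest at 250 nM. Against the untreated library of the set alone 122 genes met the rule at 250 nM, and in the second untreated library 13 genes did. In the reverse direction, 4 genes with at least 1 CPM in both untreated libraries had 3 counts or fewer at 250 nM.

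PNMA5, a member of the paraneoplastic antigen family of domesticated retrotransposon genes, reached the highest level, with 3, 7, 194 and 1118 counts in the 4 libraries and 1 in the second untreated library, or 46.0 CPM at 250 nM. H19, the maternally expressed imprinted RNA, had 0, 17, 458 and 1078 counts and 0 in the second untreated library. At 250 nM it was at 44.4 CPM, at least 347-fold higher than a floor of 3 counts in the untreated library. DAZL, an RNA-binding protein of germ cells, had 1, 13, 45 and 489 counts and 2 in the second untreated library. In each of these genes most of the RNA appeared between 50 and 250 nM.

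ONECUT2, a liver and neuron transcription factor, was at 0.0852 CPM untreated, 0.382, 1.96 and 8.52 CPM with rising dose and 0 CPM in the second untreated library, and L1CAM, a neural adhesion molecule, at 0.128 CPM untreated, 0.509, 3.35 and 6.87 CPM with rising dose and 0.104 CPM in the second untreated library. EVPL, a component of the cornified envelope of skin, was at 0 CPM untreated, 0.127, 3.42 and 7.57 CPM with rising dose and 0.104 CPM in the second untreated library. GAS2L1, a linker of actin and microtubules, was at 0.0852 CPM untreated, 0, 3.89 and 8.89 CPM with rising dose and 0 CPM in the second untreated library, and LPIN3, a phosphatidate phosphatase, at 0.0852 CPM untreated, 1.97, 7.88 and 10.8 CPM with rising dose and 0.0522 CPM in the second untreated library. TLOm1 reads could give 60.4% of the 50 nM level of ONECUT2. Of the 108 genes 14 could take over 10% of their 50 nM level from TLOm1 reads, and 19 are on the germline list, which holds 91 of all 25559 genes. Of the 94 with a chromosome in RefSeq 22 are on the X chromosome. The share of X-linked genes over all genes was not counted, and nothing is read from either count.

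The same genes were looked up in the other treated cells. In HH cells at 25 nM decitabine 62 of the 108 were above 1 CPM, in PF382 at 500 nM azacitidine 66 and in TLOm1 at 500 nM 75 were at 1 CPM or more. Without drug 78 of the 108 were under 1 CPM in both PF382 and TLOm1. H19 was at 8.73 CPM in HH at 25 nM decitabine, at 0.0366 CPM in PF382 and at 0.136 CPM in TLOm1 at 500 nM azacitidine.

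**Figure D3:**
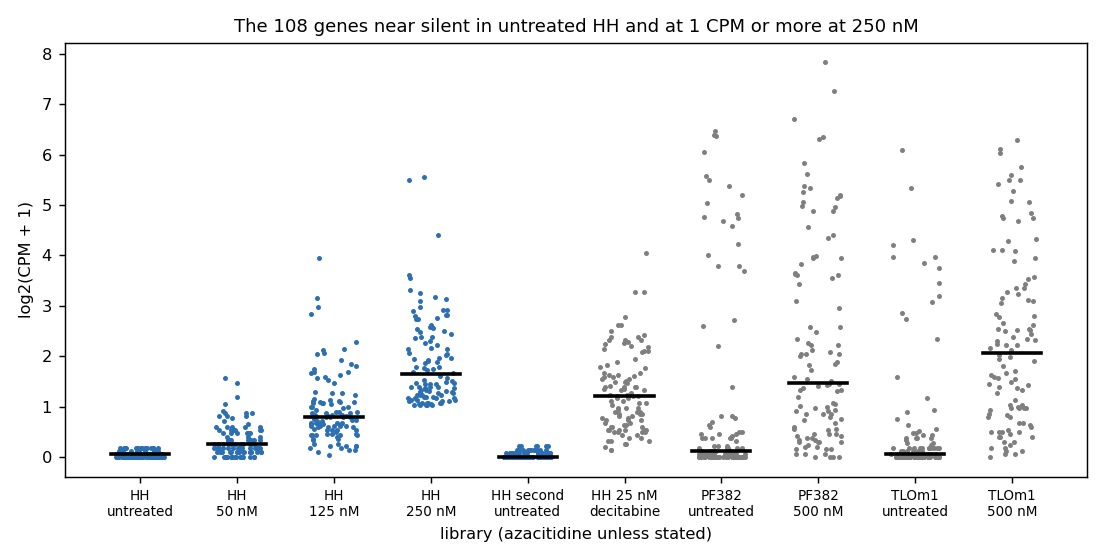
Levels on the log2(CPM + 1) scale (y axis) of the 108 genes with at most 3 counts in each untreated HH library and at least 1 CPM at 250 nM, in 10 libraries (x axis); each point is a gene in 1 library, with a random sideways offset, and each bar is the median over genes. The HH medians are 0.191, 0.728 and 2.12 CPM at 50, 125 and 250 nM, and the second untreated library is low because the rule requires it.

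Sterol synthesis fell as a group. The list holds the enzymes that make cholesterol from acetyl-CoA, genes of sterol uptake and their regulators, which the transcription factor SREBP2 controls together in response to the cholesterol content of the endoplasmic reticulum. Of 24 tested members of 28 listed, 21 fell and 0 rose, against 8.33% and 8.99% of all genes, with a median slope of -0.40. At all 3 doses 23 of the 24 lay below both untreated libraries, against 19.6% of all genes, and 23 stepped down at each dose from the untreated library of the set. Without the 50 nM library 14 of the 24 fell, and without the 250 nM library 14 fell, again with 0 rising. The summed level was 7080.0 CPM untreated, 5460.0, 4130.0 and 3190.0 CPM at the 3 doses and 8050.0 CPM in the second untreated library.

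HMGCS1, which condenses acetyl-CoA units into HMG-CoA, fell most steeply of the enzymes named here. It was at 620.4 CPM without drug, 394, 168 and 76.9 CPM at 50, 125 and 250 nM, and 944 CPM in the second untreated library (slope -1.01 ± 0.06, adjusted p = 5.51e-08). MSMO1, the sterol C4 methyl oxidase, was at 47.8 CPM without drug, 36.3, 20.3 and 11.9 CPM at 50, 125 and 250 nM, and 106 CPM in the second untreated library (slope -0.68 ± 0.06, adjusted p = 2.85e-09). The untreated libraries differed by more than 2-fold for MSMO1, and all treated libraries were below the lower of them.

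Later and earlier steps moved alike in direction. FDFT1, squalene synthase, was at 817 CPM without drug, 623, 459.9 and 288 CPM at 50, 125 and 250 nM, and 831 CPM in the second untreated library (slope -0.47 ± 0.04, adjusted p = 6.01e-09). DHCR7, the last enzyme of the pathway, was at 343 CPM without drug, 227, 158 and 109 CPM at 50, 125 and 250 nM, and 329 CPM in the second untreated library (slope -0.45 ± 0.04, adjusted p = 6.68e-09). ACAT2, the cytosolic thiolase at its start, was at 213 CPM without drug, 124, 85.3 and 60 CPM at 50, 125 and 250 nM, and 232 CPM in the second untreated library (slope -0.45 ± 0.04, adjusted p = 3.96e-08). None of these overlapped the untreated libraries at any dose.

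Regulators showed smaller values. INSIG1, which holds SREBP in the endoplasmic reticulum and is itself a target, was at 496 CPM untreated, 438, 364 and 283 CPM with rising dose and 705 CPM in the second untreated library (slope -0.27 ± 0.04, adjusted p = 9.59e-05). SREBF2, the gene of SREBP2, was at 745 CPM untreated, 703, 659 and 579 CPM with rising dose and 714 CPM in the second untreated library (slope -0.12 ± 0.04, adjusted p = 0.0341). PMVK, phosphomevalonate kinase, and TM7SF2, a sterol reductase, were not called. No sterol gene was among those open to TLOm1 reads.

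The fatty acid branch moved in part. Of 11 tested genes 5 fell (ACLY, FASN, SCD, FADS1 and ACSL3) and 1 rose, against 8.33% and 8.99% of all genes. With the 50 nM library left out 2 fell and 0 rose, and without the 250 nM library 0 fell and 1 rose. SCD, which desaturates stearate, was at 1843 CPM without drug, 1429, 1022 and 557 CPM at 50, 125 and 250 nM, and 2368 CPM in the second untreated library (slope -0.57 ± 0.09, adjusted p = 0.00383). SREBF1, the gene of the transcription factor SREBP1 that drives this branch, rose and was at 550.1 CPM without drug, 724, 1076 and 1222 CPM at 50, 125 and 250 nM, and 697 CPM in the second untreated library (slope 0.33 ± 0.06, adjusted p = 0.000848). Its level was thus highest where those of SCD and HMGCS1 were lowest.

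Glycolysis and hypoxia response genes fell too, mostly at 250 nM. Of 37 tested, 23 fell and 1 rose, against 8.33% and 8.99% of all genes, with a median slope of -0.28. At 250 nM 25 were below both untreated libraries, against 38.8% of all genes. At all 3 doses 8 of the 37 were, a share near the 19.6% of all genes. The summed level was 23300.0 CPM untreated, 21800.0, 19500.0 and 13800.0 CPM at the 3 doses and 21100.0 CPM in the second untreated library. The second untreated library was above the first for 7 of the 37, so most members were lower there as well. Without the 50 nM library 19 fell, and without the 250 nM library 1 fell and 1 rose. Of the 35 members not open to TLOm1 reads 23 fell and 0 rose.

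PGK1, phosphoglycerate kinase, was at 827 CPM without drug, 786, 657 and 398 CPM at 50, 125 and 250 nM, and 817 CPM in the second untreated library (slope -0.41 ± 0.05, adjusted p = 2.96e-05). LDHA, which makes lactate, was at 1997 CPM without drug, 1941, 1665 and 837 CPM at 50, 125 and 250 nM, and 1764 CPM in the second untreated library (slope -0.50 ± 0.11, adjusted p = 0.0226). PFKFB4, a hypoxia-induced regulator of phosphofructokinase, was at 93.6 CPM without drug, 79.7, 59.3 and 13.6 CPM at 50, 125 and 250 nM, and 33.8 CPM in the second untreated library (slope -0.99 ± 0.24, adjusted p = 0.038). For LDHA and PFKFB4 the second untreated library lay below the 50 nM library, and for PFKFB4 below the 125 nM library as well.

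ALDOC, the brain form of aldolase, was at 399 CPM untreated, 324, 238 and 100.3 CPM with rising dose and 518 CPM in the second untreated library (slope -0.70 ± 0.11, adjusted p = 0.00622). GAPDH, often used as a reference gene, was at 6189 CPM untreated, 5396, 4708 and 3436 CPM with rising dose and 5417 CPM in the second untreated library (slope -0.27 ± 0.04, adjusted p = 4.9e-05). HK2, an inducible hexokinase, was at 146 CPM untreated, 152, 129 and 85.7 CPM with rising dose and 63.6 CPM in the second untreated library and had its lowest level in the second untreated library. SLC16A3, the lactate exporter MCT4, is the member that rose, with 0.213 CPM untreated, 1.02, 2.85 and 3.62 CPM with rising dose and 0.365 CPM in the second untreated library (slope 0.69 ± 0.15, adjusted p = 0.00137), and TLOm1 reads could give 44.2% of its 50 nM level.

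**Figure D4:**
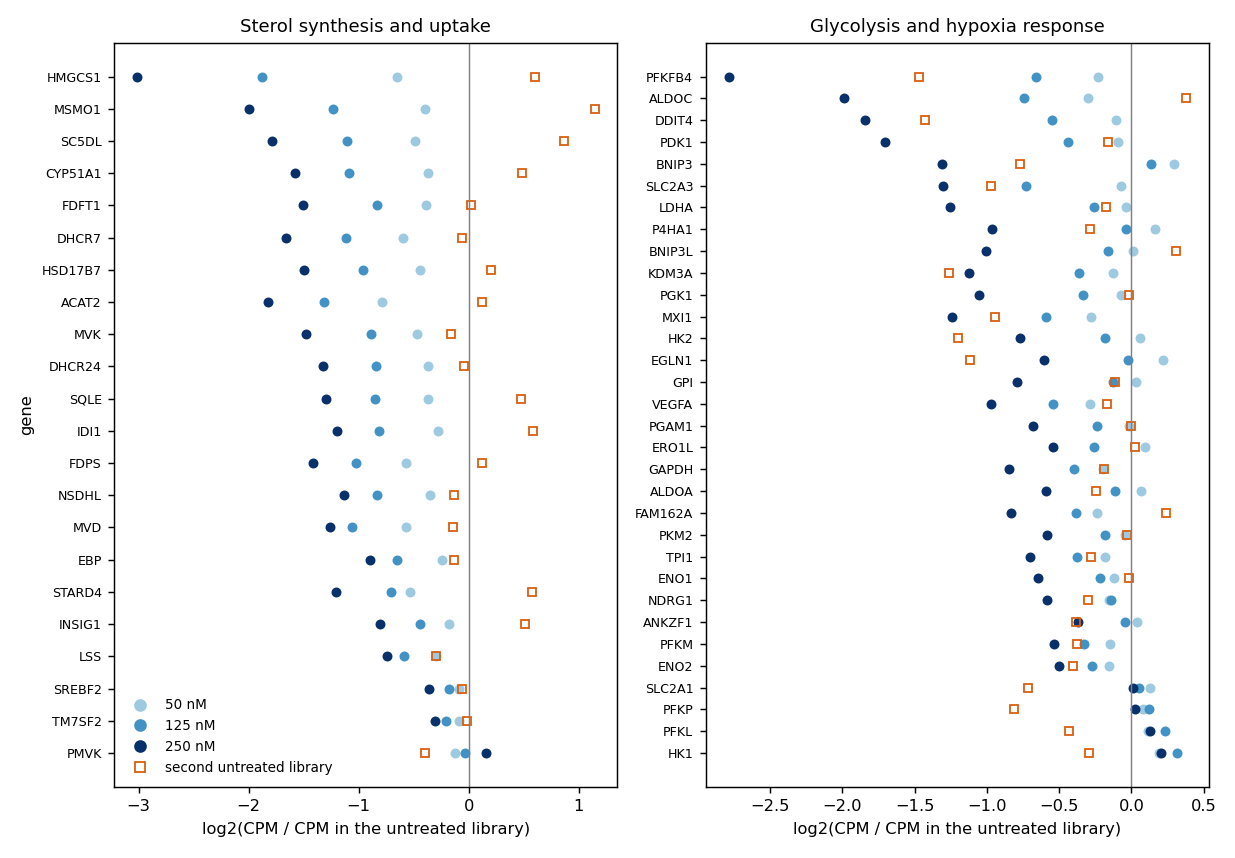
Log2 ratio of the CPM to that in the untreated library of the azacitidine set (x axis) at 50, 125 and 250 nM and in the second untreated library (open squares), for genes with at least 10 CPM untreated (y axis, ordered by slope): 22 of the sterol genes on the left and 32 glycolysis and hypoxia genes on the right, 1 library per point. Most sterol genes step down at each dose, to 76.9 CPM for HMGCS1 at 250 nM, and most glycolysis genes are lowest at 250 nM, with PFKFB4 at 13.6 CPM.

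Antigen presentation genes rose by small amounts. Of 28 tested, 17 rose and 0 fell, against 8.99% and 8.33% of all genes, with a median slope of 0.16, and 21 were above both untreated libraries at 250 nM, against 38.1% of all genes. Only 2 were so at all 3 doses, against 20.8% of all genes, and the second untreated library exceeded the first for 26 of the 28. Without the 50 nM library 0 of the 28 were called and without the 250 nM library 3, all rising, with medians of 0.17 and 0.16. HLA-E, a nonclassical class I molecule, was at 326 CPM without drug, 368, 475 and 583 CPM at 50, 125 and 250 nM, and 439 CPM in the second untreated library (slope 0.29 ± 0.04, adjusted p = 2.17e-05). CIITA, the master regulator of class II genes, was at 383 CPM without drug, 359, 507 and 622 CPM at 50, 125 and 250 nM, and 456 CPM in the second untreated library (slope 0.34 ± 0.05, adjusted p = 0.000243). CD74, the invariant chain of class II, was at 3405 CPM without drug, 3699, 4466 and 5346 CPM at 50, 125 and 250 nM, and 4597 CPM in the second untreated library (slope 0.23 ± 0.04, adjusted p = 9.42e-05). The rise with dose in these 3 genes starts from a 50 nM level below that of the second untreated library. HLA genes share sequence, and single values are uncertain. B2M, the light chain of class I, was not called (edgeR slope -0.06 ± 0.04, adjusted p = 0.284).

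Interferon-stimulated genes moved less evenly. Of 46 tested, 12 rose and 1 fell, a share of rising genes above the 8.99% of all genes, with a median slope of 0.16, and 10 lay above both untreated libraries at all 3 doses (20.8% of all genes did). The second untreated library was above the first for 36 of the 46, against 50.7% of all genes. The summed level was 1060 CPM untreated, 1090, 1150 and 1180 CPM at the 3 doses and 1180 CPM in the second untreated library. The list as a whole was thus no higher at 250 nM than in the second untreated library. Without the 50 nM library 1 rose and without the 250 nM library 4 did. Over the 38 members not open to TLOm1 reads 11 rose and 1 fell. IFITM1, which blocks virus entry, was at 1.11 CPM without drug, 2.04, 3.38 and 5.89 CPM at 50, 125 and 250 nM, and 1.41 CPM in the second untreated library (slope 0.68 ± 0.13, adjusted p = 0.000467). ISG15, a ubiquitin-like modifier, was at 33.2 CPM without drug, 36.8, 51.6 and 62.7 CPM at 50, 125 and 250 nM, and 26.6 CPM in the second untreated library (slope 0.33 ± 0.06, adjusted p = 0.000219). HERC5, the ligase that attaches it, was at 11.9 CPM without drug, 10.7, 24.5 and 26.6 CPM at 50, 125 and 250 nM, and 18 CPM in the second untreated library (slope 0.54 ± 0.08, adjusted p = 0.000128). ISG20, an exonuclease, fell and was at 29.3 CPM untreated, 27.6, 23 and 16.3 CPM with rising dose and 23 CPM in the second untreated library (slope -0.32 ± 0.07, adjusted p = 0.00195). For HERC5 the 50 nM library lay below both untreated ones. TLOm1 reads could give 10.6% of the 50 nM level of OAS2, which also rose, and of the 13 sensors of nucleic acids 1, DHX58, rose (edgeR slope 0.36 ± 0.07, adjusted p = 0.00115).

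T-cell regulators changed one by one. Of 28 tested transcription factors of the T lineage 8 rose and 3 fell, against 8.99% and 8.33% of all genes. These counts became 1 and 0 without the 50 nM library, 3 and 2 without the 250 nM library, and 7 and 1 over the 22 members not open to TLOm1 reads. The summed level of the list was 3880 CPM untreated and 4440 CPM at 250 nM, but 4630 CPM in the second untreated library. KLF2, a factor of T-cell quiescence, was at 10.5 CPM without drug, 13.6, 23.6 and 43.1 CPM at 50, 125 and 250 nM, and 25.4 CPM in the second untreated library (slope 0.72 ± 0.07, adjusted p = 4.87e-08). MYB, a factor of progenitor growth, was at 209 CPM without drug, 251, 337 and 406 CPM at 50, 125 and 250 nM, and 277 CPM in the second untreated library (slope 0.30 ± 0.04, adjusted p = 5.98e-06). GATA3, the factor of the Th2 program, was at 153 CPM without drug, 176, 223 and 235 CPM at 50, 125 and 250 nM, and 132 CPM in the second untreated library (slope 0.18 ± 0.04, adjusted p = 0.00348). KLF2 lay under the second untreated library at 50 and 125 nM and MYB at 50 nM, while GATA3 lay above both untreated libraries at every dose. RUNX3, TCF7, TOX2, BATF3 and ETS1 also rose. Of the 3 that fell, TLOm1 reads could give 33% of the 50 nM level of PRDM1 and 68.9% of that of IKZF2, and of the risers 19.5% of that of TOX2.

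Of 21 tested genes tied to cutaneous T-cell lymphoma 6 rose (JUNB, MYB, GATA3, GTSF1, PTPN6 and TNFRSF8) and 2 fell (DNM3 and GPR15), against 8.99% and 8.33% of all genes. Of the 21, 0 were called without the 50 nM library, and without the 250 nM library 2 rose and 0 fell. TLOm1 reads could give 40.2% of the 50 nM level of GTSF1. Over the 18 members not open to TLOm1 reads 5 rose and 2 fell. PTPN6, the phosphatase SHP-1 that restrains cytokine and T-cell receptor signaling and is often silenced in this lymphoma, was at 143 CPM without drug, 165, 237 and 306 CPM at 50, 125 and 250 nM, and 155 CPM in the second untreated library (slope 0.38 ± 0.05, adjusted p = 2.65e-05). TNFRSF8, the lymphoma antigen CD30, was at 1349 CPM untreated, 1269.9, 1379 and 1699 CPM with rising dose and 1355 CPM in the second untreated library (slope 0.18 ± 0.04, adjusted p = 0.00466). GPR15, a homing receptor, was at 257 CPM untreated, 236, 199.7 and 160.4 CPM with rising dose and 306 CPM in the second untreated library (slope -0.24 ± 0.05, adjusted p = 0.00168). All 3 PTPN6 values with drug were above both untreated libraries.

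Of 24 tested tumor suppressors known to be silenced by promoter methylation 5 rose and 2 fell, against 8.99% and 8.33% of all genes. Over the 18 not open to TLOm1 reads 4 rose and 0 fell, and without the 50 nM library 1 rose and 1 fell. TLOm1 reads could give 14.4% of the 50 nM level of TP73. TP73, a p53 relative, was at 15.6 CPM without drug, 34.5, 56.1 and 80.9 CPM at 50, 125 and 250 nM, and 12.8 CPM in the second untreated library (slope 0.53 ± 0.07, adjusted p = 1.98e-05). RASSF2, a Ras effector, was at 0.384 CPM untreated, 0.127, 0.158 and 0.617 CPM with rising dose and 0.104 CPM in the second untreated library (slope 1.27 ± 0.42, adjusted p = 0.0368), on few counts, and THBS1, a matrix protein that limits vessel growth, at 3.45 CPM untreated, 4.32, 10.9 and 18.9 CPM with rising dose and 3.08 CPM in the second untreated library (slope 0.91 ± 0.11, adjusted p = 7.09e-07). The list of cytotoxic genes had 7 tested of 27, of which PRF1 (perforin) and CST7 (cystatin F) rose, CST7 being at 5.24 CPM without drug, 13, 31.5 and 35.9 CPM at 50, 125 and 250 nM, and 5.95 CPM in the second untreated library (slope 0.63 ± 0.11, adjusted p = 0.00022). In the BCL2 family BID, the link from caspase-8 to mitochondria, was at 0.682 CPM without drug, 1.53, 3.61 and 6.5 CPM at 50, 125 and 250 nM, and 0.47 CPM in the second untreated library (slope 0.89 ± 0.14, adjusted p = 0.000102), BCL2L2 rose (TLOm1 reads could give 20.9% of its 50 nM level) and BMF fell. Of the 13 tested BCL2 family genes 0 were called without the 50 nM library, and over the 11 not open to TLOm1 reads 1 rose and 1 fell. Of 27 tested p53 targets 4 rose and 0 fell, or 3 and 0 over the 22 not open to TLOm1 reads.

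Surface and signaling genes of T cells were called in small numbers in each direction, and with 8.99% rising and 8.33% falling among all genes nothing is read from these counts. Of 24 tested genes of the T-cell receptor complex and its signaling 4 rose and 5 fell, of 21 surface antigens 2 and 3, of 12 costimulatory and checkpoint receptors 1 and 3, of 9 chemokines and their receptors 2 and 1, and of 27 cytokine, STAT and SOCS genes 3 and 3. In these lists 0 members rose without the 50 nM library, and 1 fell in each of the receptor signaling and costimulatory lists. Over members not open to TLOm1 reads 4 rose and 4 fell of 22 receptor signaling genes, and 2 and 2 of 19 surface antigens. The same counts were 2 and 0 of 6 chemokine genes and 3 and 2 of 25 cytokine, STAT and SOCS genes. Several of the steep falls start from a 50 nM level that TLOm1 reads could supply: 96.8% of that of IL2RA, 236% of CCR8, a chemokine receptor of skin-homing cells, and 30.8% of CD48. A share above the whole level means that 1.57% of the TLOm1 level exceeds the value measured. STAT5A, a transducer of interleukin-2 signals, was at 19.2 CPM without drug, 17.2, 24.8 and 32.3 CPM at 50, 125 and 250 nM, and 19.6 CPM in the second untreated library (slope 0.39 ± 0.06, adjusted p = 5.3e-05), and IL6R, the interleukin-6 receptor, at 146 CPM without drug, 164, 251 and 291 CPM at 50, 125 and 250 nM, and 153 CPM in the second untreated library (slope 0.36 ± 0.05, adjusted p = 7.03e-06). IL6R lay above both untreated libraries at every dose and STAT5A at 125 and 250 nM. Of the 23 tested NF-kappaB and TNF receptor genes 4 rose and 4 fell with dose, and 0 were called without the 50 nM library.

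Growth and drug-handling genes mostly missed the threshold. Over all genes 8.99% rose and 8.33% fell, and the counts of this paragraph stand beside those shares. Of 55 tested cell cycle and replication genes 4 rose (E2F2, CDC20, UBE2C and RRM2) and 4 fell (MCM6, CDC6, BUB1B and CENPE). Without the 50 nM library 1 cell cycle gene rose and 0 fell, and 0 members of the other lists of this paragraph were called. The same counts were found without the 250 nM library. MYC was at 457 CPM without drug, 482, 375 and 317 CPM at 50, 125 and 250 nM, and 470.4 CPM in the second untreated library (slope -0.26 ± 0.04, adjusted p = 5.75e-05), and of 32 genes of MYC and ribosome biogenesis 2 rose and 5 fell. Of 20 aminoacyl-tRNA synthetases 3 rose and 1 fell, and of 21 genes of the unfolded protein response 0 rose and 2 fell. In the cytidine list, which holds the transporters, kinases and deaminases that handle azacitidine, 3 of 19 rose and 2 fell: SAMHD1, the dNTP hydrolase, was at 14.8 CPM untreated, 15.6, 21.4 and 24.9 CPM with rising dose and 13.5 CPM in the second untreated library (slope 0.29 ± 0.07, adjusted p = 0.00321), and SLC29A2, a nucleoside transporter, at 37 CPM untreated, 31.7, 24.9 and 19.7 CPM with rising dose and 34.6 CPM in the second untreated library (slope -0.29 ± 0.07, adjusted p = 0.00217). Of 18 genes of DNA methylation UHRF2 rose and MBD2 and ZBTB33 fell. DNMT1, the maintenance methyltransferase and main target of the drug, was at 455 CPM untreated, 509, 566 and 564 CPM with rising dose and 363 CPM in the second untreated library and was not called (edgeR slope 0.07 ± 0.05, adjusted p = 0.367).

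Of 16 tested genes of antifolate transport and targets 1 fell and 0 rose, against 8.33% and 8.99% of all genes. With the 50 nM or the 250 nM library left out 0 were called. The gene that fell was SLC46A1, the proton-coupled folate transporter, at 55 CPM without drug, 39.9, 28.7 and 25.2 CPM at 50, 125 and 250 nM, and 49.3 CPM in the second untreated library (slope -0.29 ± 0.06, adjusted p = 0.000848). SLC19A1, the reduced folate carrier, was at 49.5 CPM untreated, 47.7, 44.7 and 55.9 CPM with rising dose and 33.8 CPM in the second untreated library (edgeR slope 0.09 ± 0.05, adjusted p = 0.225). FPGS, which adds glutamates to folates, was at 81.5 CPM untreated, 80.1, 83.2 and 87.5 CPM with rising dose and 56.5 CPM in the second untreated library (edgeR slope 0.05 ± 0.05, adjusted p = 0.464). GGH, TYMS, GART, ATIC, MTHFD1, SHMT1, ABCC1, ABCC2, ABCC4 and ABCG2 were not called, with slopes from -0.23 for ABCC2, a drug exporter, to 0.14 for ABCG2, another. None of the 9 tested DUSP phosphatases and none of the 9 tested HOX genes was called, no protocadherin of 53 passed the filter, 4 of the 32 tested zinc finger genes of chromosome 19 rose, and of 12 imprinted genes H19 and PHLDA2 rose and PEG10 fell, with TLOm1 reads able to give 23% of the 50 nM level of PHLDA2. Of the 11 imprinted genes not open to TLOm1 reads 1 rose and 1 fell.

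**Figure D5:**
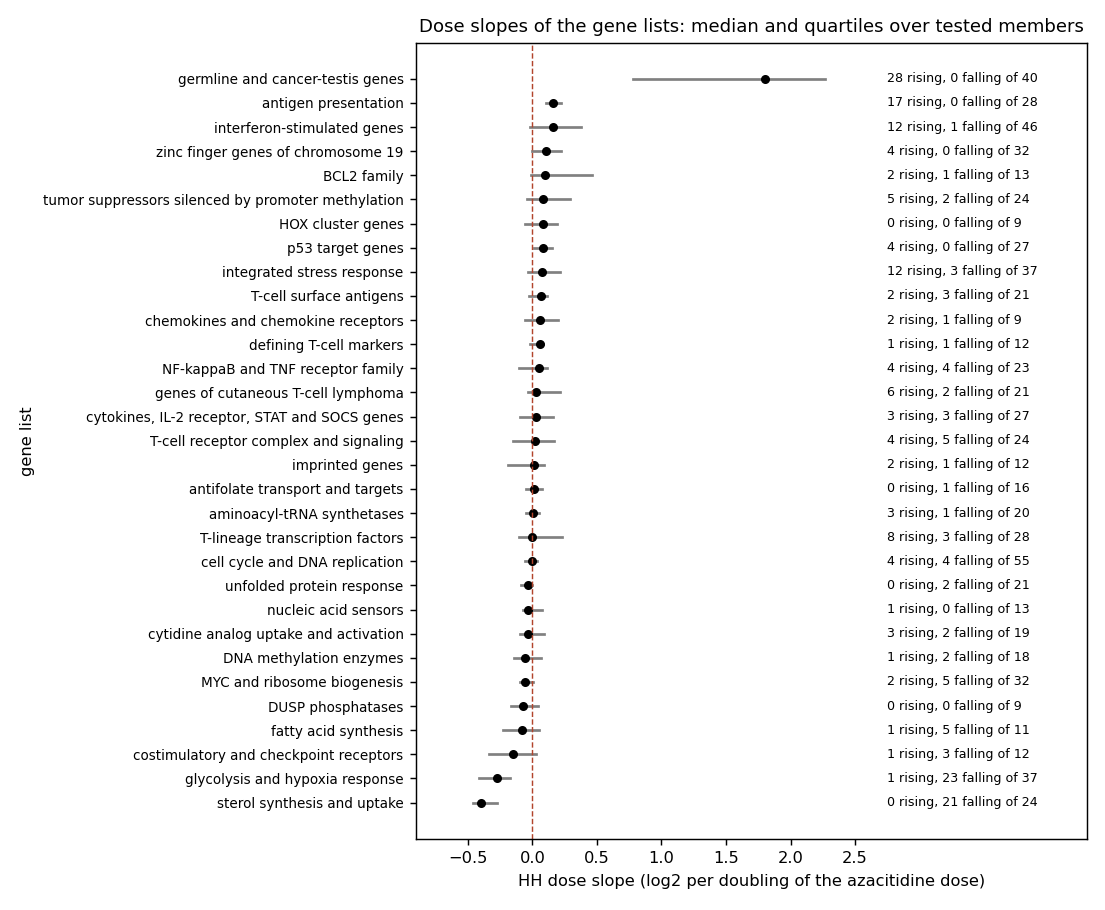
Dose slope in HH cells (x axis, log2 per doubling of the azacitidine dose) for each gene list with at least 9 tested members (y axis); points are medians and bars run between the quartiles over tested members, which are genes and not replicates, the dashed line is the median of all genes tested and the numbers at the right count members past an edgeR adjusted p of 0.05. The sterol list has the lowest median (-0.40) and the germline list the highest (1.80), most of whose tested members passed the filter through treated libraries alone.

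The HH slopes were set against those of the other lines, with a test of the difference in the same edgeR fit, added after the effect was seen to give no calls. The HH slope was higher than the mean of PF382 and TLOm1 for 517 genes (3.59%) and lower for 688 (4.78%). Neither these counts nor those against decitabine below were repeated with a library, or the genes open to TLOm1 reads, left out. The dose ranges differ, 50 to 250 nM against 125 to 500 nM. No gene passed for the effect of the 3 doses together (edgeR 0 higher and 0 lower, 1311 at an unadjusted p under 0.05, DESeq2 47 higher and 23 lower).

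Cell cycle genes make up part of this difference. Of 55 tested, 18 had a higher slope in HH, against 3.59% of all genes, and 0 a lower one, and the slopes were below 0 for 54 in TLOm1 and 36 in PF382. E2F2 differed by 0.51 ± 0.06 per doubling, adjusted p = 1.71e-06, and CDC20, the activator of the anaphase-promoting complex, by 0.38 ± 0.06 per doubling, adjusted p = 0.000123 (edgeR). CDC20 was at 172 CPM untreated, 184, 228 and 262 CPM with rising dose and 134 CPM in the second untreated library in HH, at 269, 264, 260.0 and 194 CPM in PF382 and at 138, 129, 133 and 113 CPM in TLOm1 at 0, 125, 250 and 500 nM. The level at the highest dose was thus above the untreated one in HH and below it in the other lines, whose highest dose was 500 nM.

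The integrated stress response, which raises amino acid synthesis and transport genes through ATF4, was the reverse. Of 37 tested genes 14 had a lower slope in HH, against 4.78% of all genes, and 1 a higher one. The median slope was 0.08 in HH but 0.34 in PF382 and 0.36 in TLOm1, where 36 and 34 of the 37 slopes were above 0. Within HH 12 rose and 3 fell with dose, beside 8.99% and 8.33% of all genes. These counts were 4 and 0 without the 50 nM library, 2 and 1 without the 250 nM library, and 10 and 2 over the 31 members not open to TLOm1 reads. ATF5, a factor of this response, was at 30.9 CPM without drug, 65.4, 199 and 276 CPM at 50, 125 and 250 nM, and 25.4 CPM in the second untreated library (slope 0.90 ± 0.14, adjusted p = 0.0064). SLC7A5, the large amino acid transporter, was at 154 CPM without drug, 164, 187 and 281 CPM at 50, 125 and 250 nM, and 105 CPM in the second untreated library (slope 0.33 ± 0.05, adjusted p = 8.7e-05). ATF3, a stress factor, was at 51.7 CPM untreated, 48, 47.9 and 42.6 CPM with rising dose and 23.7 CPM in the second untreated library in HH, and its slope was lower than in the other lines (difference -0.78 ± 0.08 per doubling, adjusted p = 1.4e-07 by edgeR). In PF382 it was at 6.13, 4.73, 8.84 and 17.1 CPM and in TLOm1 at 121, 102, 126 and 198 CPM.

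The sterol decline was shared in direction. Slopes were below 0 for 23 of the 24 genes in PF382 (median -0.23), for 24 in TLOm1 (median -0.52) and for 23 in HH with decitabine (median -0.26), against 46.7%, 49.7% and 50.7% of all genes tested. HMGCS1 had a lower slope in HH than in the other lines (-0.43 ± 0.08 per doubling, adjusted p = 0.00401) by edgeR, as had SC5DL, while INSIG1 had a higher one (0.36 ± 0.06 per doubling, adjusted p = 0.000177). HMGCS1 was at 224, 132, 105 and 80.8 CPM in PF382 and at 293, 221, 109 and 73.4 CPM in TLOm1. Among glycolysis genes the median slope was -0.24 in PF382, -0.23 in TLOm1 and -0.05 in HH with decitabine.

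Against decitabine in the same line, few slopes differed: 13 genes were higher (0.0903%) and 10 lower (0.0695%) with azacitidine by edgeR, and for the effect of the 3 doses 0 and 0, with 333 at an unadjusted p under 0.05 and 0 by DESeq2. No dose is matched between the drugs. SLC7A5 differed by 0.58 ± 0.07 per doubling, adjusted p = 0.00135 and was at 84.9, 60.7 and 57 CPM at 5, 12.5 and 25 nM decitabine. KLF2 differed by 0.61 ± 0.10 per doubling, adjusted p = 0.00295 and was at 41.2, 39.8 and 50.2 CPM. Of the 1294 genes that rose with azacitidine 1164 had a decitabine slope above 0, and of the 1199 that fell 1046 had one below 0, against 941 and 793 in PF382 and 998 and 861 in TLOm1. Of all genes tested 49.3% had a decitabine slope above 0, 53.3% a PF382 slope and 50.3% a TLOm1 slope above 0. CCNA1 was at 0.27, 1.43 and 12.2 CPM, MAGEA4 at 0, 0.0572 and 0.351 CPM and HMGCS1 at 588, 397 and 224 CPM at the 3 decitabine doses. CCNA1 was highest and HMGCS1 lowest at the highest dose of either drug.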

How the data were processed

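RNA-seq libraries of HH cells were taken from a series of 24 libraries of T-cell lines. The deposited values were raw read counts per gene symbol (25559 genes), not normalized by the authors. The submitters' processing notes list GRCh37.p2 as the build and STAR, DESeq2 and limma as tools, with neither version nor role. For the counter and the annotation the name is not given in the sources used here. Both poly-A and ribosome-depleted RNA appear in the labels, which was not settled, and whether counting used strand is not stated.

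Counts were analysed in R 4.3.3 with edgeR 4.0.16 (TMM, robust quasi-likelihood F test, Benjamini-Hochberg adjustment). Genes were kept by filterByExpr on the 4 HH libraries (minimum count 10, minimum total 15), which left 14394. The treated against untreated contrast used 12 groups over 24 libraries (12 residual degrees of freedom, all of them between doses of a line and drug). The dose slope used the 18 treated libraries (6 residual degrees of freedom). The p values therefore rest on the spread between single libraries of different doses and cell lines, not between replicate cultures. Depth was 13892514 to 32496676 counts per library. Alternatives were DESeq2 1.42.0, limma 3.58.1 (voom), other scaling, filters, controls and doses, and leaving out each treated library. The script was tested on simulated data.

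Genes named follow a rule: for the effect the smallest p, since none passed; for the slope the 5 smallest p in each direction; up to 4 members per list by slope p; 6 per difference; the 10 highest near-silent genes; and the tested antifolate genes. Further members and genes with values in the text, such as CD4, DNMT1, B2M, PRAME, REC8 and CDC20, were chosen after their values were seen. The members, the 38 gene lists and the tests were chosen with earlier results of these data known. Promoter sequences were matched to RefSeq tables by symbol. Only 72.8% of tested genes (75.0% of rising ones and 60.2% of near-silent ones) had a sequence, so the comparison of CpG content over sets is void and not given. The X-inactivation and Y-linked transcripts, and a few genes picked by this rule, were left out.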

Additional observations from a re-analysis of the deposited data

Results flagged for a closer look

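The difference between the HH dose slope and the mean slope of PF382 and TLOm1 was tested in the edgeR fit, and 6 genes, those of smallest adjusted p, are given, each dose being 1 library. PASD1, a cancer-testis antigen, differed by -3.00 ± 0.23 per doubling, adjusted p = 3.75e-09. It was already expressed in untreated HH cells and was at 17.7 CPM untreated, 10.1, 9.65 and 12.8 CPM with rising dose and 26.9 CPM in the second untreated library, while it was at 0, 0.0367, 0.201 and 4.76 CPM in PF382 and 0, 0.134, 0.881 and 3.49 CPM in TLOm1 at 0, 125, 250 and 500 nM. ONECUT2 went the other way (2.06 ± 0.20 per doubling, adjusted p = 8.33e-08, edgeR). It came from near 0 in HH and was at 12.9, 14.3, 13.4 and 14.9 CPM in PF382 and 14.7, 9.97, 11.4 and 8.43 CPM in TLOm1.

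CTSB, a lysosomal protease, differed by -1.002 ± 0.08 per doubling, adjusted p = 8.22e-09 (edgeR). It was at 15.2 CPM untreated, 14.3, 8.19 and 5.15 CPM with rising dose and 12 CPM in the second untreated library in HH and at 75.6, 116, 185 and 244 CPM in TLOm1. SERPINE2, a protease inhibitor, differed by -0.85 ± 0.08 per doubling, adjusted p = 3.35e-08, MTX3, a mitochondrial import protein, by -1.26 ± 0.12 per doubling, adjusted p = 4.89e-08, and SYT11, a vesicle protein, by -0.77 ± 0.07 per doubling, adjusted p = 4.89e-08 (all edgeR). The dose ranges differ between the lines, and their part in these differences was not tested.

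Between azacitidine and decitabine in HH, the edgeR slope difference was 0.58 ± 0.07 per doubling, adjusted p = 0.00135 for SLC7A5, 0.63 ± 0.10 per doubling, adjusted p = 0.00265 for ABCA13, 0.61 ± 0.10 per doubling, adjusted p = 0.00295 for KLF2 and 0.36 ± 0.06 per doubling, adjusted p = 0.00399 for GAS5, a noncoding RNA that hosts small nucleolar RNAs. It was 0.36 ± 0.06 per doubling, adjusted p = 0.00906 for PHGDH, the first enzyme of serine synthesis, and 0.39 ± 0.07 per doubling, adjusted p = 0.00906 for PCK2, mitochondrial PEP carboxykinase. In SLC7A5, PHGDH and PCK2, all known ATF4 targets, azacitidine levels were 164, 187 and 281 CPM, 89.8, 93.6 and 119 CPM, and 41.9, 53.8 and 73 CPM with rising dose, and decitabine levels 84.9, 60.7 and 57 CPM, 56.5, 46.8 and 41.5 CPM, and 37.3, 37.4 and 34.8 CPM. The sign of each of these 3 slopes differed between the drugs at doses that are not matched. TLOm1 reads could give 10.4% of the 50 nM level of PHGDH.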

How the results depend on the processing

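No paired analysis was possible because each dose has 1 library and the labels carry no replicate numbers. The count of genes in the effect (0 higher and 0 lower with edgeR) was 205 and 75 with DESeq2, 14 and 31 with limma voom, 3 higher in the 12 libraries of the azacitidine set, 950 and 1002 with both untreated libraries as controls, 1663 and 2187 with the second untreated library alone, 1382 and 1031 with the dose slope as a term, and ranged from 0 to 232 higher and 0 to 94 lower when a treated library was left out. For the effect against PF382 and TLOm1 (0 and 0) DESeq2 gave 47 and 23, the shared doses of 125 and 250 nM gave 1 lower, and leaving out a library gave 0 to 5 higher and 0 to 2 lower. For the dose slope DESeq2 gave 901 rising and 782 falling, and leaving out a library 139 to 1222 rising and 105 to 1166 falling, the low ends without the 50 nM library. Over the 146 named genes tested for slope, 1016 of the values kept direction and side of the threshold, 291 kept direction but missed it, and 6 turned: the slopes of ABCA13 (-0.031) and SESN2 (-0.0911) with dose rank and the untreated libraries, and those of CD58 (-0.0207 to 0.244), DAPK1 (-1.58 to 0.114), PLK2 (-0.316 to 2.84) and SESN2 (-0.0222 to 0.521) over the fits that leave out a library, where CD58 and DAPK1 turned without the 50 nM and PLK2 and SESN2 without the 250 nM library. Past 2-fold, a pseudocount of 0.5 CPM gave 19 lower at 50 nM and 138 lower in the second untreated library, 2 CPM gave 39 higher at 50 nM and 56 lower in the second untreated library, a mean of at least 5 CPM gave 39 higher and 4 lower at 50 nM, 123 higher at 125 nM and 215 higher at 250 nM, and leaving out genes open to TLOm1 reads gave 52 higher at 50 nM. The near-silent genes were 42 with 0 counts required and 55 with 2 CPM required at 250 nM. The cause of these changes was not tested. Alternatives that used the genes open to TLOm1 reads, the slope difference tests and the slope with a library left out were chosen after seeing the data. The slope differences, against the other lines and against decitabine, were run in the main setting only. How far they depend on a single library, the scaling or TLOm1 reads was not tested. The depth of 16175077 counts at 50 nM limits what can be seen of genes near 0 there.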
